A study of Caenorhabditis elegans with 4 samples.

Results

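The regions described here are the HTP-3 ChIP-seq peaks on chromosome III of Caenorhabditis elegans, chosen by chromosome alone and not by any measured value. They number 2205 of the 11713 nuclear peaks in the combined list deposited for the experiment, 637 of 3295 in the list of replicate 1 and 715 of 4006 in the list of replicate 2. The chromosome makes up 13.8% of the summed extent of the 6 nuclear chromosomes, and its shares of the peaks were 18.8% in the combined list (95% Wilson interval 18.1 to 19.5), 19.3% in replicate 1 (18.0 to 20.7) and 17.8% in replicate 2 (16.7 to 19.1). These intervals account for counting error alone, and they take no account of dependence between neighbouring peaks.

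HTP-3 carries a HORMA domain and is a component of the axis of meiotic chromosomes, the protein core along which each pair of sister chromatids is folded into loops. In C. elegans it recruits the other HORMA-domain proteins HIM-3, HTP-1 and HTP-2 and is needed for meiotic double-strand breaks, homologue pairing and synapsis. Each worm chromosome also carries a pairing centre near one end, through which homologues find each other; on chromosome III it lies at the left end and is bound by the zinc finger protein ZIM-1. Worm autosomes recombine mostly in their outer arms, while their centres are gene-rich and recombine little.

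Both ChIP libraries came from whole hermaphrodite worms of the strain fem-2(b245) grown at 20 °C, and each has an input DNA library of the same strain, which was not analysed here. The mutated gene, which promotes male fates, itself lies on III according to the genotype label, and there was no wild type for comparison. The stage label reads young adult with a germline, whereas the growth protocol describes gravid adults; somatic chromatin was in the extract in either case. The sample records give 20 min with the crosslinker EGS and 10 min with EGS and formaldehyde, alike for ChIP and input. The antibody was a rabbit polyclonal antibody against an HTP-3 peptide, used at 5 µg. Whether the replicates were separate cultures is not stated, so their spread may be technical. Since the lists hold 2 replicates of 1 condition and regions are not replicates, no difference between chromosomes or regions was tested, and the comparisons below are descriptions. The number of reads behind a peak is unknown.

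Chromosome III carried 160 combined peaks per Mb, against 110.0 per Mb on the other 5 chromosomes together, a ratio of 1.45. In the replicate lists III had 46.2 peaks per Mb in replicate 1 and 51.9 in replicate 2, against 30.7 and 38.1 on the other 5 chromosomes, which gave ratios of 1.503 and 1.36 (mean 1.43 ± 0.099, SD, n = 2). III ranked first of 6 in each of the 3 lists, with chromosome I second. The lead over I was small in replicate 2, with 51.9 peaks per Mb on III and 50.2 on I, and larger in replicate 1, with 46.2 on III and 37.8 on I. Combined peaks covered 7.01% of III and 4.66% of the other 5 chromosomes. Replicate 1 peaks covered 2.85% of III and 1.99% of the others, and the wider replicate 2 peaks 11.9% and 7.59%.

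To see which regions carried the surplus, each chromosome was cut into 3 equal parts and each part of III was set against the same part elsewhere. At the average density of the other 5 chromosomes III would have held 689 fewer combined peaks. Of the surplus counted part by part, 39.7% lay in the middle part, 38.9% in the right part and 21.4% in the left part. The shares were 48.5% in the middle, 31.7% in the right and 19.9% in the left part in replicate 1, and 52.1%, 44.2% and 3.74% in replicate 2. The right part had 155.4 combined peaks per Mb on III and 97.1 on the other 5 chromosomes, a ratio of 1.60, with 1.52 in replicate 1 and 1.56 in replicate 2 (1.54 ± 0.025, SD, n = 2). The ratio of the middle part was 1.42 in the combined list and 1.52 ± 0.10 over the replicates (SD, n = 2). The left part gave 1.35 in the combined list and 1.36 in replicate 1 but 1.05 in replicate 2 (mean 1.202 ± 0.22, SD, n = 2), so that its surplus was within the replicate spread.

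Against chromosome I alone, its closest neighbour in density, III exceeded I mainly on the right when like-named parts were compared. The right part held 155.4 combined peaks per Mb on III and 111.5 on I, a ratio of 1.39, which was 1.52 in replicate 1 and 1.60 in replicate 2. The middle parts were nearer to each other, with 200.7 combined peaks per Mb on III and 193.3 on I, and a ratio of 1.04; the ratios were 1.22 in replicate 1 and 1.00 in replicate 2. The left part was sparser on III than on I by combined peaks (ratio 0.936) and by replicate 2 (0.707), and equal to it in replicate 1 (1.00). These ends are unlike, since the pairing centre lies at the left end of III and the right end of I. Between pairing centre ends, III had 123.8 combined peaks per Mb and I 111.5, and between opposite ends 155.4 and 132.4. III was also the denser at both ends in replicate 1, with 35.0 against 28.3 and 42.9 against 35.0. In replicate 2 these values were 34.2 against 32.0 and 51.1 against 48.4.

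**Figure D1:**
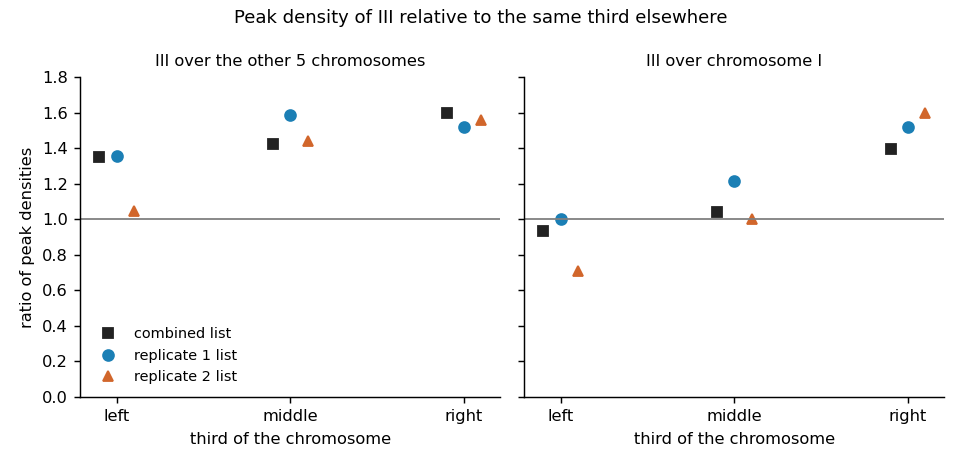
Ratio of peak densities (vertical axis, no unit) of III over the other 5 chromosomes (left panel) and over chromosome I (right panel) in the left, middle and right part of the chromosome; squares are the combined list, circles replicate 1 and triangles replicate 2, and the line marks equal density. The right part lies between 1.39 and 1.60 in both panels, whereas the left part reaches down to 1.05 against the other 5 chromosomes and 0.707 against I.

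The middle of III was denser than its arms. The middle part held 200.7 combined peaks per Mb, the left part 123.8 and the right part 155.4, a centre to arm ratio of 1.44. The ratio was 1.56 in replicate 1 and 1.65 in replicate 2 (1.60 ± 0.063, SD, n = 2). On the other 4 autosomes pooled combined peaks gave 1.63, replicate 1 gave 1.54 and replicate 2 gave 1.65, so that III was below them in the combined list and differed from them by less than 0.1 in the replicates. On X the combined peaks gave a ratio of 0.978.

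Cutting into 3 equal parts hid a sharper shape. In 28 bins of about 492 kb, the 7 leftmost bins held 35 to 54 combined peaks each (median 43), the next 15 bins 66 to 136 (median 99) and the last 6 bins 48 to 103 (median 63). The limits of these 3 blocks were set after the profile had been seen. The left block and the middle block did not overlap in the combined list, nor in replicate 2, where their bins held 5 to 16 and 22 to 50 peaks. In replicate 1 they held 6 to 22 and 19 to 46 peaks and overlapped slightly.

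The left block, III:1-3445886, averaged 91.1 combined peaks per Mb, 0.454 times the 200.6 per Mb of the middle block, III:3445887-10829929. In replicate 1 the left block had 27.3 and the middle block 59.9 peaks per Mb, and in replicate 2 they had 23.5 and 68.8, which gave a ratio of 0.399 ± 0.081 over the replicates (SD, n = 2). The change fell between neighbouring bins: bin 7 held 43 combined, 11 replicate 1 and 14 replicate 2 peaks, and bin 8 held 108, 29 and 33. In steps of 100 kb it was less abrupt. Between 2.5 and 3.3 Mb each step held 3 to 17 combined peaks, from 3.3 to 3.7 Mb 10 to 20, and from 3.7 to 4.5 Mb 10 to 31, the lowest of the last range being the step from 4.3 to 4.4 Mb.

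The right block, III:10829930-13783547, was intermediate, with 138.8 combined peaks per Mb, 34.2 in replicate 1 and 42.7 in replicate 2. Its ratio to the middle block was 0.692 in the combined list and 0.596 ± 0.035 over the replicates (SD, n = 2). Within it the sparsest bin was III:11322200-11814468, with 48 combined, 8 replicate 1 and 10 replicate 2 peaks. Its last bin, which ends at the right tip, held 103 combined, 25 replicate 1 and 30 replicate 2 peaks.

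A sparse left end was not confined to III. Each chromosome was divided into 28 bins, and the density of its first 7 bins was divided by that of the next 15. For combined peaks this ratio was 0.454 for III, against 0.316 for II, 0.528 for V, 0.656 for I, 0.679 for IV and 0.812 for X. In both replicates III and II had the lowest ratios, 0.456 and 0.352 in replicate 1 and 0.342 and 0.335 in replicate 2. The limits were set on the profile of III after it had been seen, which may favour a low ratio for III in this ranking.

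**Figure D2:**
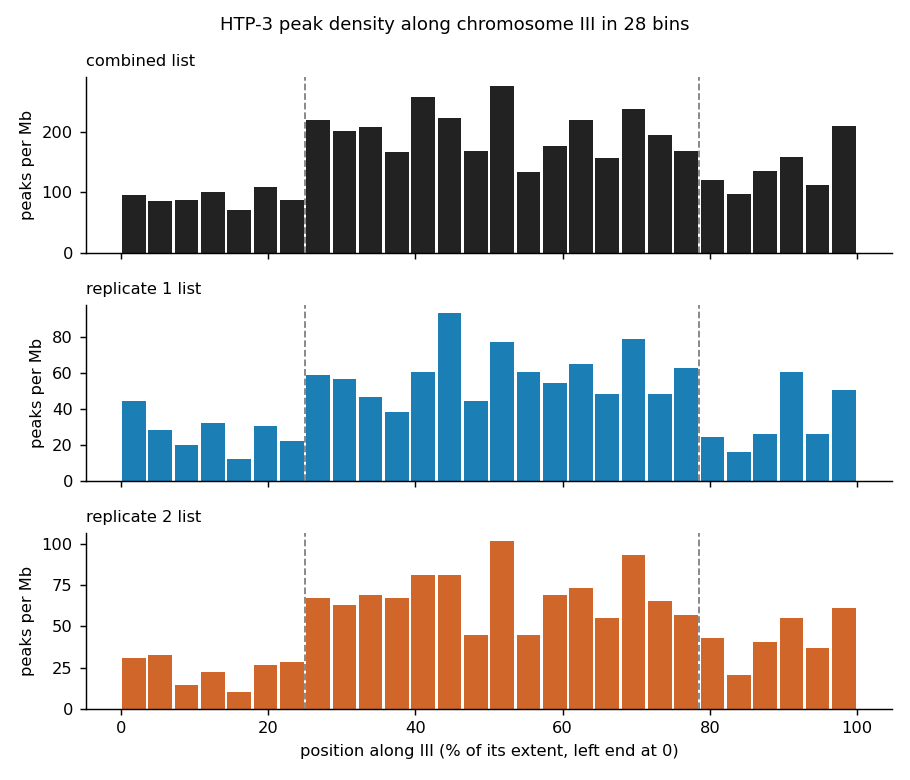
Peak density (vertical axis, peaks per Mb) in 28 equal bins along III (horizontal axis, position as a percentage of the extent of III with the left, pairing centre end at 0) for the combined list, replicate 1 and replicate 2; dashed lines mark the limits of the 3 blocks. In the combined list the 7 bins left of the first line hold 35 to 54 peaks and the 15 bins between the lines 66 to 136.

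The densest bin of the middle part, III:6891774-7384043, had 136 combined, 38 replicate 1 and 50 replicate 2 peaks and was first of 28 in the combined list and also in replicate 2, and the third in replicate 1. Its right neighbour, III:7384044-7876312, was the sparsest bin of the middle part in the combined list with 66 peaks, yet it held 30 replicate 1 peaks and ranked 6 of 28 there. The densest bin of the right part, III:9353122-9845390, had 117 combined, 39 replicate 1 and 46 replicate 2 peaks. That of the left part was bin 8, III:3445887-3938156, which is the first bin after the step. The sparsest bin of the chromosome was III:1969079-2461347, which held 35 combined, 6 replicate 1 and 5 replicate 2 peaks and ranked last of 28 in all 3 lists.

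Combined peaks were then sorted by the replicate lists that they overlap by at least 1 bp. Of the 2205 peaks on III, 504 overlapped both replicates (22.9%, 95% Wilson interval 21.2 to 24.7), against 22.6% of all nuclear peaks, so that III was near the background. A further 895 (40.6%) met replicate 2 only and 68 (3.08%) replicate 1 only, against 37.5% and 2.90% on the other 5 chromosomes. The remaining 738 overlapped neither (33.5%, interval 31.5 to 35.5), against 36.4% of all nuclear peaks. Peaks in both replicates had a median width of 629 bp and a median score of 30.6, whereas those in neither had 212.5 bp and 5.19. The score is the authors' own value per peak and was compared only within a list.

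Each kind of peak was denser on III than on the other 5 chromosomes. Peaks in both replicates lay at 36.6 per Mb on III and 24.8 elsewhere (ratio 1.48), those in replicate 2 only at 64.9 and 41.2 (1.58), and those in neither at 53.5 and 40.8 (1.31). Of the surplus of 689 peaks, 47.5% were peaks in replicate 2 only, 25.4% were in neither replicate and 23.6% were in both. By score, III was 1.55 times as dense as elsewhere for the 20% of combined peaks with the lowest scores. The next classes of 20% gave 1.55, 1.35 and 1.52, and the 20% with the highest scores 1.31, so that the ratio did not fall steadily with score. The 10% of peaks with the highest scores made up 9.30% of the peaks on III (interval 8.15 to 10.6) and 10.2% of those elsewhere. By width, the ratio in the combined list was 1.40 for peaks under 200 bp, and 1.75 for the 143 peaks of 1000 bp or wider. Replicate 1 did not share this lean to wide peaks, since 10.36% of its peaks on III and 10.87% elsewhere were of 1000 bp or wider. In replicate 2 these shares were 94.97% and 94.50%, so that this limit hardly divides its peaks.

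Peaks in both replicates and peaks in replicate 2 only were densest in the middle of III. Peaks in both replicates had 25.9 per Mb in the left part, 50.3 in the middle and 33.5 in the right, and those in replicate 2 only had 39.2, 97.5 and 58.1. Peaks in neither replicate varied less along III, with 51.8 per Mb in the left, 50.7 in the middle and 58.1 in the right part, a centre to arm ratio of 0.923. By the 3 blocks they had 46.4 per Mb in the left, 55.7 in the middle and 56.5 in the right block, so that the sparse left block was the lowest here too. On the other 4 autosomes pooled the ratio of such peaks was 1.305. The 68 peaks in replicate 1 only ran the other way, with 6.96, 2.18 and 5.66 per Mb. Their centre to arm ratio was 0.345 on III and 0.675 on the other 4 autosomes pooled. Consequently the share in neither replicate was 51.0% in the left block, 27.8% in the middle block and 40.7% in the right block. Over the 3 equal parts it was 41.8% in the left, 25.3% in the middle and 37.4% in the right part. On the other 5 chromosomes these shares were 39.8%, 33.3% and 40.1%, also lowest in the middle. What part width plays in these shares was not tested, and a wider peak meets the 1 bp criterion more easily.

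**Figure D3:**
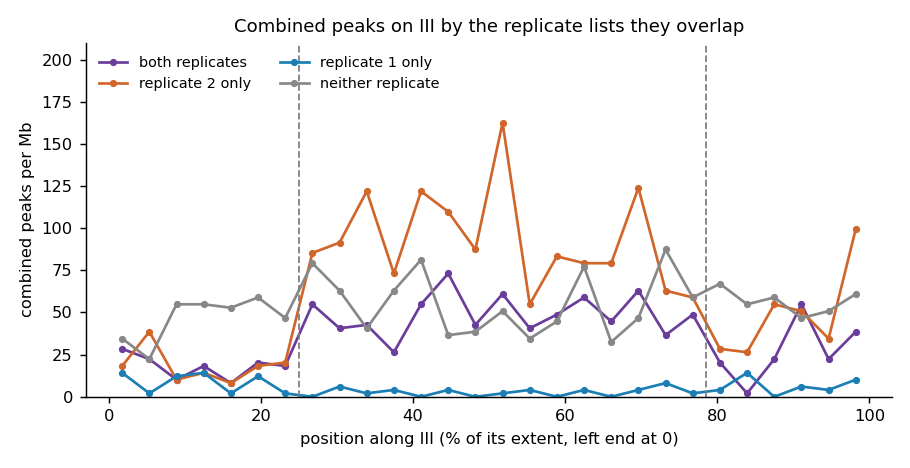
Density of combined peaks (vertical axis, peaks per Mb) in the 28 bins along III (horizontal axis, % of its extent), split by the replicate lists they overlap; dashed lines mark the block limits. Peaks in neither replicate stay near 51 to 58 per Mb when averaged over the left, middle and right part, while peaks in replicate 2 only reach 97.5 per Mb in the middle part.

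The replicate lists themselves were compared on III. Of the replicate 1 peaks 565 of 637 overlapped a replicate 2 peak (88.7%, interval 86.0 to 90.9), against 87.4% over all nuclear chromosomes. Of the replicate 2 peaks 370 of 715 overlapped a replicate 1 peak (51.7%, interval 48.1 to 55.4), against 51.2% overall. The combined list held 625 of the 637 replicate 1 peaks (98.1%, against 96.8% overall) and 707 of the 715 replicate 2 peaks (98.9%, against 98.2% overall). None of these shares on III stood away from the background by more than 2 percentage points.

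Along III replicate 1 peaks met replicate 2 most often in the middle part, as they did on the other 5 chromosomes. In the left part of III 127 of 161 did so (78.9%, interval 71.9 to 84.5), in the middle part 265 of 279 (94.98%, 91.8 to 97.0) and in the right part 173 of 197 (87.8%, 82.5 to 91.7). The shares on the other 5 chromosomes were 84.8% in the left, 93.5% in the middle and 80.7% in the right part. Replicate 2 peaks of III met replicate 1 in 61.8% of cases in the left part (97 of 157, interval 54.0 to 69.0), 46.1% in the middle part (149 of 323) and 52.8% in the right part (124 of 235). Elsewhere these shares were 51.6% in the left, 49.4% in the middle and 53.1% in the right part. III was thus above them in the left part. In the middle and right parts its intervals, 40.8 to 51.6 and 46.4 to 59.1, held the shares found elsewhere. Replicate 2 peaks on III often ran across several replicate 1 peaks: 102 of 715 (14.3%) spanned 2 or more, compared with 388 of 3291 (11.8%) on the other 5 chromosomes. In 268 pairs with exactly 1 peak of each replicate, the midpoints were a median of 110 bp apart and the replicate 2 peak was a median of 3.56 times as wide (quartiles 2.56 and 5.26).

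The left end, which carries the pairing centre, was sparser than the right end. The left part had 123.8 and the right part 155.4 combined peaks per Mb, a ratio of 0.797, which was 0.817 in replicate 1 and 0.668 in replicate 2 (0.743 ± 0.11, SD, n = 2). The first 2 Mb over the last 2 Mb gave 0.601 in the combined list, the only list in which this was computed. Unlike the first 2 Mb, the left part includes the dense bin 8 after the step, so the lower ratio does not show a gradient towards the tip. Within the outermost 100 kb, the left end held 11 combined, 7 replicate 1 and 5 replicate 2 peaks, and the right end 36, 11 and 10. Chromosome II was alike at its right end, with 9 combined peaks in the first and 33 in the last 100 kb. With the pairing centre ends of the other chromosomes pooled, that of III was the denser, with 123.8 combined peaks per Mb on III and 84.4 on the other 5 (ratio 1.47). At the opposite ends the ratio was 1.49, so that both ends of III exceeded their counterparts to a like degree in the combined list. In replicate 2 these ratios were 1.195 and 1.39.

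The first combined peak on III, III:14757-14921, was 165 bp wide with a score of 8.18, and the last, III:13783382-13783547, was 166 bp wide with a score of 6.23. Neither overlapped a replicate peak. In replicate 1 a peak began at base 1 of the chromosome, where the combined list had none, while replicate 2 began at 25192.

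Peaks on III were about as wide as elsewhere. The median width was 305 bp on III and 296 bp on the other 5 chromosomes in the combined list, 475 and 480 bp in replicate 1, and 1619 and 1410 bp in replicate 2. Replicate 2 alone thus gave a visible difference from the pooled chromosomes, a ratio of 1.15. In that list the medians of II (1590 bp) and I (1555 bp) were near that of III. Those of IV (1401.5 bp), V (1357 bp) and X (1251.5 bp) were lower. Peaks of the middle part were the widest in each list: in the combined list the medians were 297 bp in the left, 316.5 bp in the middle and 304.5 bp in the right part, and 78 of the 143 combined peaks of 1000 bp or more lay in the middle part. In replicate 2 the medians were 1417, 1795 and 1504 bp.

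Neighbouring peaks lay close together. Midpoints of neighbouring combined peaks on III were a median of 2.03 kb apart (quartiles 0.942 and 6.74 kb), against a median of 2.50 kb (1.04 and 9.66 kb) on the other 5 chromosomes. In the replicate lists the medians were 6.42 kb on III and 10.6 kb elsewhere in replicate 1, and 9.78 kb on III and 12.03 kb elsewhere in replicate 2. A larger number of peaks by itself brings neighbours closer. The median divided by the mean spacing, which allows for this, was 0.325 on III and 0.275 elsewhere for combined peaks. It was 0.297 on III and 0.327 elsewhere for replicate 1 and 0.508 on III and 0.459 elsewhere for replicate 2, so that its order was not the same in the 3 lists.

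The distance from the end of a combined peak to the start of the next ran from 43 bp to 137 kb on III. On III 42.0% of these distances were under 1 kb, against 36.4% elsewhere, and 1.04% were 50 kb or more, against 3.21% elsewhere. Chromosome I was close to III, with 39.0% under 1 kb and 1.41% of 50 kb or more. In replicate 1 27.4% of distances on III were under 1 kb, below 27.7% on II and 27.8% on V. In replicate 2 the share on III was 17.9%, below 18.3% on II and 18.8% on IV. The remaining chromosomes were below III in each replicate list. The classes from 1 to 20 kb differed by less than 1 percentage point.

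**Figure D4:**
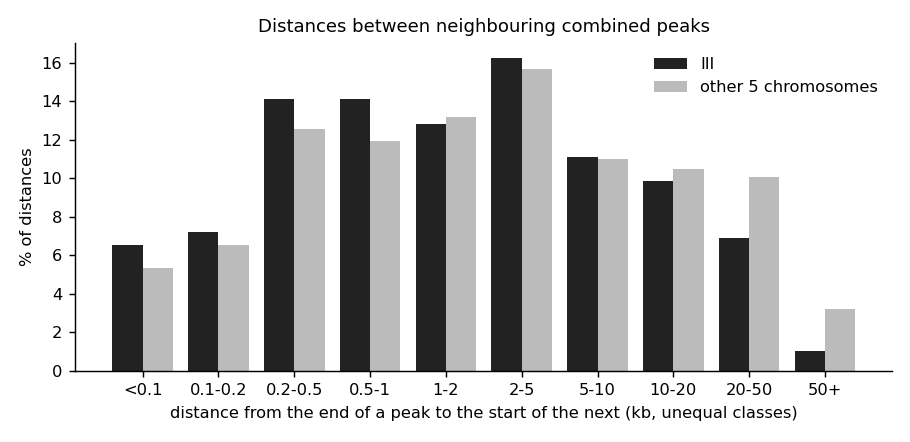
Share of distances (vertical axis, %) from the end of a combined peak to the start of the next in size classes (horizontal axis, kb, unequal classes), for III (dark) and the other 5 chromosomes (light). III has more distances under 1 kb, 42.0% against 36.4%, and fewer of 50 kb or more, 1.04% against 3.21%.

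Runs of 3 or more peaks with less than 1 kb between them were counted as clusters. The combined list had 196 clusters on III with 873 peaks (39.6% of the peaks on III, Wilson interval 37.6 to 41.6), against 34.7% on the other 5 chromosomes and 36.8% on I. In replicate 1 26.7% of the peaks on III were in clusters (interval 23.4 to 30.3), against 19.3% on the other 5 chromosomes and 10.4% on I. In replicate 2 the shares were 8.81% on III (interval 6.95 to 11.1), 9.72% elsewhere and 11.6% on I, so that the higher share on III was not seen there. Replicate 2 peaks are wide enough to join what replicate 1 lists as several peaks. The part of that width in the difference was not tested.

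Clusters were placed as the peaks were, with 47 in the left part, 90 in the middle part and 59 in the right part. They were short, since the median span was 2862.5 bp and the longest 17352 bp. In 132 of the 196 clusters at least 1 peak overlapped both replicates. A cluster has 3 or more peaks (median 4), any of which can meet this criterion. Of the single peaks within clusters 30.6% overlapped both, and clusters on other chromosomes were not counted in this way. Peaks in clusters overlapped neither replicate in 13.6% of cases, whereas the 836 single combined peaks, with no neighbour within 1 kb, did so in 58.4%. On III 1 replicate 2 peak met up to 12 combined peaks, so the peaks of a cluster can share the same overlap. The part of this in the contrast was not tested. Median scores differed little, 7.68 in clusters and 7.48 for single peaks, but peaks in clusters were wider, with 366 bp against 269 bp.

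The clusters with most peaks held 13 each. The first, III:4488850-4499505, lies at the right edge of the left part and met 2 peaks of each replicate. The second, III:7145675-7156012, lies inside the densest bin and met 5 replicate 1 and 3 replicate 2 peaks. A cluster of 11 peaks, III:13712799-13724695, stands close to the right tip and met 5 replicate 1 and 3 replicate 2 peaks. Of the 3 clusters of 10 peaks, the pair with the larger covered length, at III:7720818-7738169 and III:10807227-10821505, was covered for 83.3% and 89.6% of its span; the other, which spanned 10335 bp, is centred at 63.3% of the extent of III. Replicate 2 listed each of the pair as 1 peak, of 17951 and 14375 bp, and replicate 1 as 12 and 10 peaks. The number of peaks at a site therefore depended on the list, and the cluster at III:7720818-7738169 lies in the bin that was sparse in the combined list and dense in replicate 1.

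Stretches of 20 kb or more without a combined peak numbered 175 on III and summed to 5.99 Mb, or 43.4% of the chromosome, against 60.9% of the other 5 chromosomes and 44.9% of I. They made up 52.7% of the left part (65 stretches), 30.5% of the middle part (45) and 47.1% of the right part (65). Of the 23 stretches of 50 kb or more, 11 were in the left part, 4 in the middle part and 8 in the right part. In replicate 1 the stretches of 20 kb or more took up 83.1% of III and in replicate 2 68.2%.

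The longest stretch, III:1952155-2089523, was 137 kb and ranked 13 among all stretches of the 6 chromosomes. Replicate 1 nevertheless had a peak of 5100 bp inside it, III:2077584-2082683, with a score of 554.93 that 17.2% of replicate 1 peaks exceeded, while neither replicate 2 nor the combined list had a peak there. The next were III:12714821-12816754 (102 kb), III:1682542-1777468 (94.9 kb), III:6727674-6816983 (89.3 kb) and III:13182149-13258157 (76.0 kb). In these 4 no replicate 1 peak was found, and replicate 2 peaks reached at most 362 bp into an edge. The stretch at III:6727674-6816983 is the only 1 of the 5 in the middle part and ends in the bin just left of the densest bin.

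**Figure D5:**
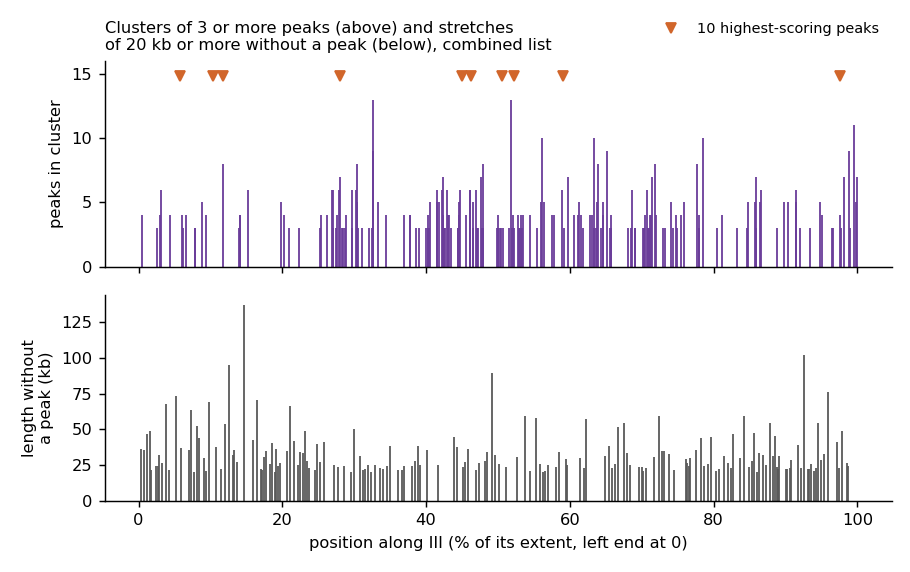
Number of peaks in each of the 196 clusters (upper panel) and length in kb of each of the 175 stretches of 20 kb or more without a combined peak (lower panel) by their centre along III (horizontal axis, % of its extent); triangles mark the 10 highest-scoring peaks found in both replicates. Of the 196 clusters 90 lie in the middle part of III, which holds 4 of the 23 stretches of 50 kb or more.

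The 10 combined peaks on III with the highest score that overlapped both replicates had scores of 138.48 to 174.79, and no other combined peak on III scored as high. Of these sites 4 lay in the left part, 5 in the middle part and 1 in the right part, beside 569, 922 and 714 of all combined peaks on III. Of the 4 on the left, 3 were in the sparse left block. Those 3 were III:793442-794167 with a score of 155.71, III:1418526-1420223 with 145.18 and III:1618771-1619415 with 145.20. Replicate 1 gave the same sites scores of 1145.71, 2535.24 and 1499.31 and replicate 2 scores of 1206.28, 2421.84 and 654.68.

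The single site on the right, III:13447964-13448628, had the highest score of the whole combined list, 174.79. Replicate 1 had a peak of 1889 bp there with a score of 2553.72 and replicate 2 one of 1299 bp with 2420.78, which 1.97% and 1.65% of the peaks of those lists exceeded. Here the replicate 1 peak was the wider. The 5 sites of the middle part were III:7207501-7208997, III:6206026-6207334, III:6971784-6972800, III:8129263-8131155 and III:6373801-6375772, with scores of 154.87, 153.52, 150.03, 149.81 and 138.48. Their combined widths ran from 1017 to 1972 bp, and 2 of them lay in the densest bin. Over the 10 sites, the share of a replicate list with a score above that of the site reached 7.28% in replicate 1 and 14.9% in replicate 2. The combined list is the deposit for the experiment as a whole, and the sites were chosen by its scores, so these shares are no independent check.

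The widest combined peak on III was also among these 10. III:3863851-3872829 was 8979 bp wide with a score of 144.36, lies just right of the step, met 4 replicate 1 peaks and was a single peak of 13304 bp in replicate 2. In replicate 1 its highest-scoring part, 4631 bp wide, had a score of 3100, a value shared by 36 replicate 1 peaks and exceeded by 3, so that scores at this level do not rank sites. The next widest were III:7728301-7734760 with 6460 bp and a score of 49.78, III:5939098-5944343 with 5246 bp and 100.7, III:10807549-10811850 with 4302 bp and 28.43, and III:61924-65923 with 4000 bp and 29.91. All 5 overlapped both replicates, and replicate 2 listed each as 1 peak of 4906 to 17951 bp. Genes and sequence at these sites were not analysed here.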

How the data were processed

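HTP-3 ChIP peaks of 2 replicates were analysed from 3 lists of intervals, with coordinates on WormBase WS220 per the file headers (ce10 per the submitters' processing notes, which also name BWA). The second column of each file names MACS as the caller of both replicate lists and MACS v2 for the combined one. How the control and the threshold were chosen, and how the replicates were combined, is not given in the sources used here. The score that the authors deposited per peak has no stated scale; it begins at 50.02, 50.01 and 1.30 in replicate 1, replicate 2 and the combined list, and was used only to rank or filter within a list. Read depth is unknown.

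The tools were Python 3.11.15, pandas 2.3.3, numpy 2.4.6, matplotlib 3.10.9 and scipy 1.17.1. Peaks were placed by their midpoint, and the extent of a chromosome was its largest peak end in any list. Mitochondrial peaks were set aside. Intervals are Wilson intervals at 95%. Functions were tested on simulated intervals. Regions named are the 10 highest-scoring peaks in both replicates, the 5 widest peaks, the 5 largest clusters (ties by covered length), the 5 longest stretches, the first and last peak and the densest and sparsest bin of each part; other regions, the 100 kb steps and the 3 blocks were chosen after their values were seen. The members and measures were chosen with earlier results of these data known. Alternatives were the higher-scoring 50% of peaks, merging within 500 bp, covered length, other limits, a reciprocal overlap of 50%, replicate peaks cut in width, other distances and each replicate list alone.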

Additional observations from a re-analysis of the deposited data

How the results depend on the processing

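Of 51 alternative values, 25 kept their direction and moved by less than the replicate spread (or stayed within the Wilson interval or 1.5 times the count), 24 moved further and 2 changed direction. The density ratio of III to the other 5 chromosomes stayed between 1.36 and 1.51 under every alternative run. The centre to arm ratio of III, 1.44, was 1.35 with peaks merged, 1.64 by covered length, 1.73 with the middle 50% as the centre, 1.77 with the block limits and 1.69 for peaks in both replicates, and it reversed to 0.923 for peaks in neither (over 3 equal parts; by block they were sparsest on the left); these last 3 settings were chosen after seeing the data. Without replicate 1 or 2 it was 1.65 and 1.56. The left to right ratio, 0.797, was 0.637 for the outer 25% on each side, 0.601 for the outer 2 Mb and 0.656 for the blocks (chosen after seeing the data), and 0.668 to 0.817 with a replicate left out. Shares of overlap rest on the criterion: when 50% of both peaks had to be shared they were 1.497% of combined peaks in both replicates, 3.61% of replicate 1 and 3.22% of replicate 2, 14.6% of combined peaks were in both once replicate peaks had been trimmed to the median width of replicate 1, and among the higher-scoring 50% of peaks 85.9% of replicate 1 met replicate 2. The spacing ratio of III, 0.812, was 0.604 to 0.813 with a replicate left out. The width ratio, 1.03, ran from 0.990, a reversal in replicate 1, to 1.15 in replicate 2. The share in clusters, 39.6%, was 20.9% for the higher-scoring 50%, 23.5% with peaks joined under 500 bp and 57.1% under 2 kb, and 8.81% to 26.7% with a replicate left out. The stretches numbered 23 at 50 kb or more, and 196 to 207 with a replicate left out. Each replicate list also differs from the combined list in the caller named and in its range of scores. No paired analysis was possible because only the ChIP libraries have peak lists and no groups were compared.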
